A study of Mus musculus with 8 samples.

Results

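The drug and xenobiotic metabolizing enzymes examined here are 134 array probes for 98 genes. They were chosen by gene symbol alone: cytochromes P450 of the families Cyp1 to Cyp4, glutathione transferases whose symbol is Gst with the class letter a, k, m, o, p, t or z and a number, UDP-glucuronosyltransferases of Ugt1 and Ugt2, and sulfotransferases of Sult1 and Sult2. The array carried 25697 probes for 18138 symbols in all. RNA of 8 mouse colon tumors was measured on 1-colour Illumina BeadChips, 1 array per sample. All mice were labelled APCmin/+, which carries a truncating allele of the Wnt pathway inhibitor Apc and develops intestinal tumors, were of a mixed C57BL/6J and FVBN strain and were 8 months old. The VP16 group (replicates 1 to 4) carried a transgene for VP16, a viral transcriptional activation domain, and served as the control. The VP16LXRa group (replicates 5 to 8) carried VP16 fused to the liver X receptor LXRα, a sterol-sensing nuclear receptor that the fusion makes active without ligand. Which promoter drives the transgene is not stated in the sources used here. Because the labels do not say whether each tumor came from its own mouse, a p-value here covers only the spread among these 8 samples, which may be technical.

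Cytochromes P450 oxidise foreign compounds and also fatty acids, eicosanoids and steroids, and the other 3 families conjugate the products to glutathione, glucuronic acid or sulfate so that they can be excreted. Most of these enzymes are best known from liver, but the epithelium of the gut makes its own set, which meets dietary and microbial compounds first. The nuclear receptors PXR and CAR and the transcription factors AHR and NRF2 switch many of these genes on when such compounds are present.

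A probe was called detected on an array when its detection p-value against negative control beads was under 0.01, and was tested when this held on at least 4 of the 8 arrays. This left 61 member probes for 46 genes. Of the other 73 member probes 64 were detected on no array and 9 on 1 to 3 arrays, and 52 member genes had no tested probe. All 3 Cyp1 genes, the best-known targets of AHR, were among these, as were Cyp3a11, Cyp2e1 and the Cyp4a genes, all of which are prominent in mouse liver. The glutathione transferases were the most completely detected of the families, with 17 of 20 genes tested, against 19 of 58 P450 genes, 5 of 13 UDP-glucuronosyltransferase genes and 5 of 7 sulfotransferase genes. The number of detected member probes was 53, 60, 63 and 62 in VP16 replicates 1 to 4 and 43, 64, 60 and 61 in VP16LXRa replicates 5 to 8. VP16 replicate 1 and VP16LXRa replicate 5 were thus the lowest of their groups, although neither had the fewest detected probes over the whole array (11803 and 11890, against 11469 to 12257 on the other arrays).

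**Figure D1:**
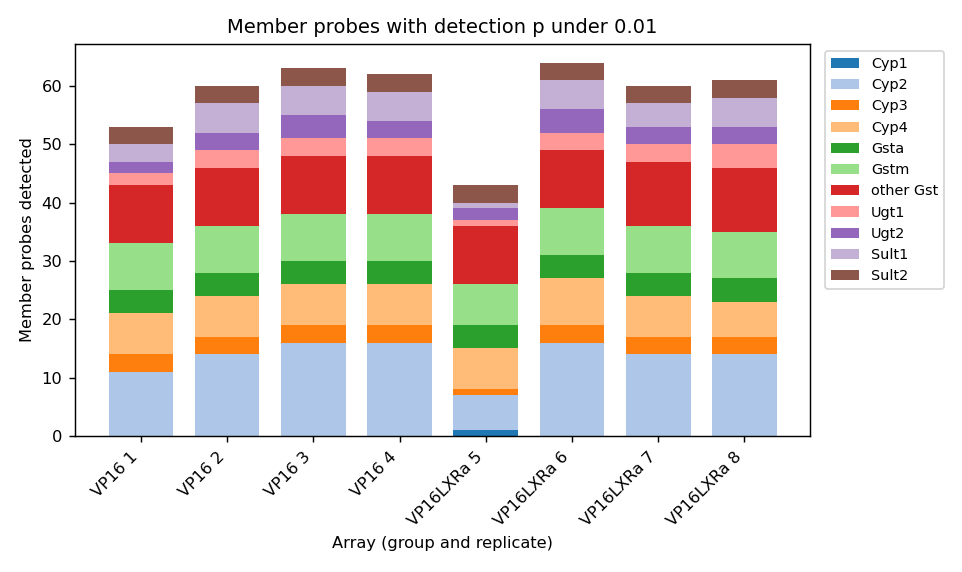
Number of the 134 member probes detected (detection p under 0.01) on each array, stacked by gene family. VP16LXRa replicate 5 had 43 and VP16 replicate 1 had 53, while the other arrays had 60 to 64. The Cyp2 and Sult1 probes account for most of the gap.

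Those 2 arrays also stood apart in the levels of the members, and every group difference below has to be read with this in view. Of the 46 tested genes, each taken at its brightest tested probe, 32 (69.6%) were lower in both of them than in all 6 other tumors, and 3 were higher in both than in the 6 others. Among all 9110 tested genes the same held for 19.5% and 21.9%. Low values in both arrays were not particular to the members. They were seen for 18 of 33 tested other oxidising, reducing and hydrolysing enzymes (54.5%) and 7 of 11 tested drug transporters (63.6%). Further lists are given below. Relative to the median of the other 3 tumors of its own group, the median member was 1.24 log2 units lower in VP16 replicate 1 (median log2 difference -1.24) and 1.89 lower in VP16LXRa replicate 5 (-1.89), while the median over all tested genes was -0.01 and 0.02. Colonocyte markers moved with the members. Of 11 listed markers 8 were on the array, and their normalized intensities summed to 19503 in the first of these arrays (VP16) and 2472 in the second (VP16LXRa), against 66142 to 80207 in the other VP16 and 63727 to 77029 in the other VP16LXRa tumors. The goblet cell list (5 of 8 markers on the array) summed to 31243 and 9963, against 38123 to 87427 in the 3 other VP16 and 75624 to 82044 in the 3 other VP16LXRa tumors. The Wnt-active epithelium list (6 of 6 on the array) summed to 5230 and 6106, against 532 to 698 and 600 to 1035. The neutrophil list (4 of 5 on the array) summed to 3554 and 12946, against 107 to 132 and 137 to 1176. The macrophage list (6 of 7 on the array) summed to 2459 and 5604, against 1355 to 1752 and 1568 to 2654. For macrophages VP16LXRa replicate 7, at 2654, was thus above VP16 replicate 1. The fibroblast list (5 of 5 on the array) summed to 15162 and 14038, against 2637 to 7070 and 3906 to 6154. These sums weigh the brightest genes most, and not every marker followed its list. The fibroblast marker Lum had its lowest log2 intensity, 5.99, in VP16LXRa replicate 5. In VP16 replicate 1 the goblet markers Tff3 (12.61) and Spink4 (13.87) lay within the values of the other VP16 tumors. So did the Wnt marker Nkd1 (5.19) and the neutrophil marker Ngp (4.62), neither of them detected there. The neutrophil marker Retnlg, at 7.17 in VP16 replicate 1, was below VP16LXRa replicates 6 and 8 (7.62 and 8.46). The part of cell composition in the member values was not tested, and in bulk RNA fewer cells of a type and less RNA per cell cannot be told apart. Of the 8 liver markers on the array Alb, Ahsg and Fgb were detected in no tumor, Apoa2 and Serpina1a in 1, Serpina1b in 4 (highest in VP16LXRa replicate 7, at 9.02, and VP16 replicate 2, at 7.26), and Ttr and Trf in all 8. Of the 5 small intestinal markers on the array Apoa4, Apoc3, Fabp2 and Akp3 were detected in no tumor, and Fabp6 in 7, at log2 intensities of 5.37 to 6.15 there.

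**Figure D2:**
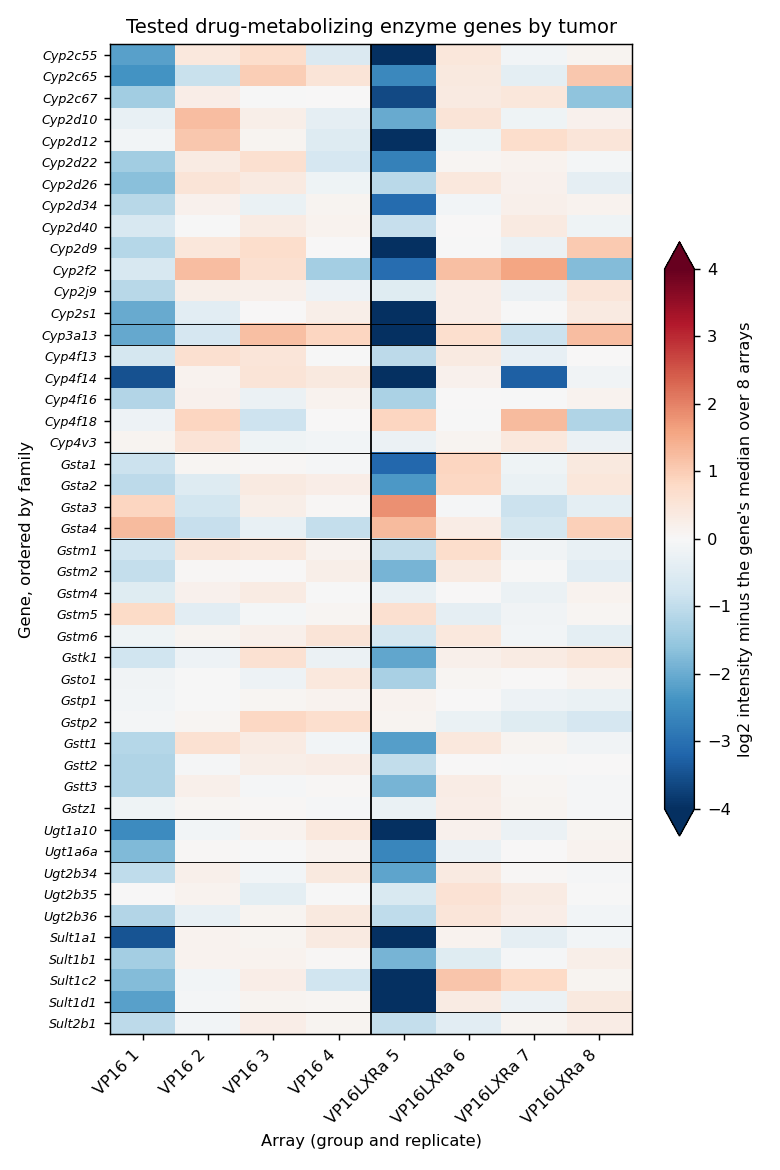
Log2 intensity of the 46 tested member genes on each array, shown as the difference from the gene's median over the 8 arrays. Rows are genes ordered by family, columns are arrays, and the colour scale ends at 4 log2 units on either side. VP16 replicate 1 and VP16LXRa replicate 5 are low (blue) for most rows and high for Gsta3, Gsta4 and Gstm5.

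The promoters of 5 members are shown to set those that were low in both arrays (Cyp2c55, Sult1d1, Ugt1a10) beside those that were high in both (Gsta3, Gstm5). A RefSeq promoter, 250 bases before to 50 after the gene's start in GRCm38.p6, was matched by symbol for 41 of the 46 tested genes, 29 of them low in both arrays and 2 high in both. Where a gene had several listed starts, such as Cyp4f14 with 4, only the first was used, so that motifs at other starts are not counted. Capitals mark matches, on either strand, to any of 6 short motifs: TGACNNNGC, the core of the antioxidant response element bound by NRF2; GCGTG, the core of the element bound by AHR; GTTAAT, a core bound by HNF1; CTTTGA, the core bound by TCF and LEF factors; TTTATNG, a core bound by CDX factors; and the DR4 element, a direct repeat of AGGTCA with 4 bases between its copies, of the kind bound by LXR with its partner RXR.
Cyp2c55, chr19:39006769-39007068, plus strand: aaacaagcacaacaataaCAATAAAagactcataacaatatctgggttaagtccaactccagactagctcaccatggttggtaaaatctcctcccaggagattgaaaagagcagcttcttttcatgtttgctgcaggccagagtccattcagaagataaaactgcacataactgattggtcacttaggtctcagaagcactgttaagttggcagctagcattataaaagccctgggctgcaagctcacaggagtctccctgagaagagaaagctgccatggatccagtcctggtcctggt
Sult1d1, chr5:87568957-87569256, minus strand: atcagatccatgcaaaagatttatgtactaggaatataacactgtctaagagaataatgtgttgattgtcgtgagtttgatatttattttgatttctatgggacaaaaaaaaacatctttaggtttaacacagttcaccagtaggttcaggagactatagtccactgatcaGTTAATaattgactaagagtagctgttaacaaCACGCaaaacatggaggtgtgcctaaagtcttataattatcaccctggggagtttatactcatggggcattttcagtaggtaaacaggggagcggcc
Ugt1a10, chr1:88055161-88055460, plus strand: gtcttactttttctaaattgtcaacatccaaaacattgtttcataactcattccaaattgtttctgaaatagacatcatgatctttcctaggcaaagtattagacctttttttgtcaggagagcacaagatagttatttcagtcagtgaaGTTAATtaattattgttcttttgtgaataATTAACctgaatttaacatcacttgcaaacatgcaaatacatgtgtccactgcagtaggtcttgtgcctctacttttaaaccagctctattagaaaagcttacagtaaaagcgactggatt
Gsta3, chr1:21240335-21240634, plus strand: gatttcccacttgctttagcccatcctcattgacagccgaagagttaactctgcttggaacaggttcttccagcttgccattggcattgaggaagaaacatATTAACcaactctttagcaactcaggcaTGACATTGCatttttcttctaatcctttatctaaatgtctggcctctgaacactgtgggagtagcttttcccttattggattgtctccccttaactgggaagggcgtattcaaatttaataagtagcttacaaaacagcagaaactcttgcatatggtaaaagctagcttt
Gstm5, chr3:107895604-107895903, plus strand: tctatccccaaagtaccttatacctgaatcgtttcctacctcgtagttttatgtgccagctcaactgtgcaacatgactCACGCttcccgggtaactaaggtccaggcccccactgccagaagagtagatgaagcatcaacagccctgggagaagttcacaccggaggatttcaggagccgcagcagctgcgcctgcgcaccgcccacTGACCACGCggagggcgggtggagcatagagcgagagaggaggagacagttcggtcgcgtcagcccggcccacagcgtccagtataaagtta

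The promoters of Gsta3 and Gstm5 both held TGACNNNGC, which was in 1 of the 29 promoters of genes low in both arrays, 4 of the 41 member promoters (9.76%) and 12.5% of 27025 promoters of all genes. In Gstm5 this match overlaps a GCGTG match on the other strand. GTTAAT occurred in 6 of the 41 member promoters (14.6%), against 7.2% of all promoters, and Ugt1a10 held 2 copies. CTTTGA was found in 7 (17.1%, against 16.2%), GCGTG in 11 (26.8%, against 32.5%) and TTTATNG in 2 (4.88%, against 11.3%). The DR4 element was in none of the 41, and in 3 of the 27025 promoters (0.0111%). Gsta4, the third gene high in both arrays, had no matched promoter, so that group rests on 2 genes. The motifs were chosen after values were seen, and no contrast between the groups can be drawn from these counts. These are letter matches in short windows, and they do not show binding.

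The comparison of the genotypes asked how an active LXRα fusion changes the expression of these enzymes in colon tumors. No member probe passed limma's test over all 11875 tested probes (0 of 61 at an adjusted p under 0.05, smallest adjusted p = 0.9999), where 1 of all tested probes passed (0.00842%). At an unadjusted p under 0.05 there was 1 member probe (1.64%), lower in VP16LXRa tumors, against 1.68% of all tested probes in either direction and 0.808% lower. The values of the 2 groups overlapped for every tested member probe. They were fully apart for 0 of 61, against 1.28% of all tested probes. Of the 46 member genes 37 had lower and 9 higher means in VP16LXRa tumors, with a median log2 difference of -0.27 (range -1.65 to 0.68), while 47.7% of all tested genes were lower and their median was 0.01. This leaning rested on VP16LXRa replicate 5: without it the median was 0.26, and without both arrays that stood apart it was -0.05, with 27 genes lower and 19 higher. The difference of 16 genes changed sign between those fits. The error was large for these genes, with a median standard error of 0.57 log2 units, against 0.24 over all tested genes, and the half-width of the 95% interval ran from 0.35 to 4.37.

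**Figure D3:**
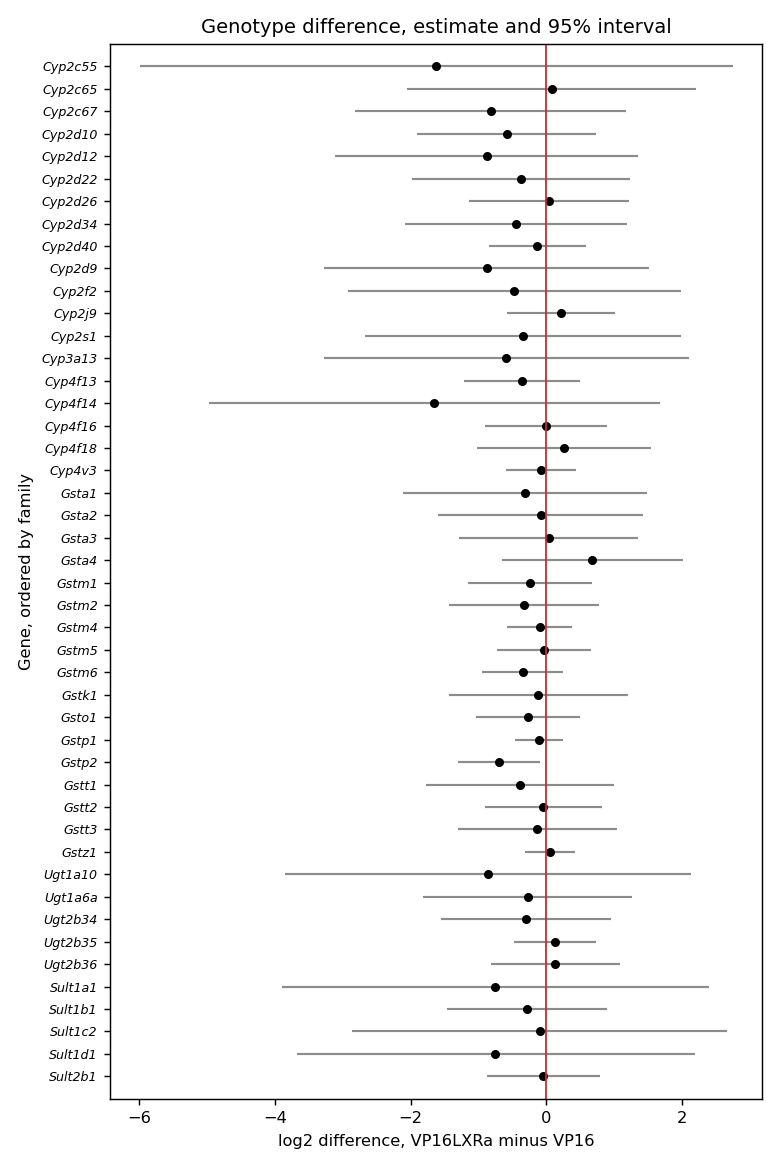
Log2 difference between VP16LXRa and VP16 tumors for the 46 tested member genes (points) with limma's unadjusted 95% intervals (lines), ordered by family. The intervals of 45 genes include 0. That of Gstp2 runs from -1.30 to -0.10.

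Among the P450 genes, 15 of 19 had lower and 4 higher means in VP16LXRa tumors (median -0.37), and none passed. Cyp2c55, an epoxygenase and hydroxylase of arachidonic and linoleic acid that is abundant in mouse colon, had the widest spread of all members. Its log2 intensity was 10.71, 13.31, 13.60 and 12.31 in VP16 replicates 1 to 4 and 4.33, 13.34, 12.77 and 13.01 in VP16LXRa replicates 5 to 8. Apart from replicates 1 and 5 the groups overlapped, and in VP16LXRa replicate 5 the probe was not detected. The difference was -1.62 (95% interval -5.99 to 2.75), and -0.03 (-0.86 to 0.79) without both arrays. The neighbouring Cyp2c65 had 4.73, 6.21, 8.10 and 7.62 in VP16 and 4.54, 7.50, 6.73 and 8.19 in VP16LXRa tumors, with replicates 1 and 5 again lowest. It was detected in neither of these. Cyp2c67 was the third tested gene (difference -0.82, SE 0.88) of 11 Cyp2c genes on the array, and was not detected in VP16LXRa replicate 5.

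The Cyp2d genes form a cluster on chromosome 15 of closely related sequences whose human counterpart CYP2D6 oxidises many drugs. 7 of the 8 on the array were tested, and their levels may be mixed with one another where probes match more than 1 of them, which the file does not show. VP16LXRa replicate 5 was the lowest of its group for all 7. Cyp2d12 stood at 8.59, 9.77, 8.80 and 8.18 in VP16 and at 4.68, 8.53, 9.41 and 9.19 in VP16LXRa tumors, and was not detected in VP16LXRa replicate 5. Replicate 1 of VP16 lay inside its group, and only replicate 5 of VP16LXRa was low. Cyp2d10, which was detected in all 8 tumors, was likewise low in replicate 5 alone, at 8.48, 9.99, 9.01 and 8.41 against 6.75, 9.27, 8.60 and 8.94 (difference -0.58, SE 0.58). Cyp2d26 had a difference of 0.04 (SE 0.52) at its brightest probe. Its other tested probe was detected in 3 VP16 tumors and 1 VP16LXRa tumor. Most of its VP16LXRa values are thus not above background, and no difference is given for it.

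Cyp2s1, an enzyme of epithelia outside the liver, had log2 intensities of 8.03, 9.62, 10.06 and 10.27 in VP16 and 5.87, 10.31, 10.03 and 10.41 in VP16LXRa tumors. Cyp3a13, the only tested member of the Cyp3a subfamily, whose human counterparts metabolise a large share of drugs, had 7.98, 9.36, 11.22 and 10.88 against 5.99, 10.69, 9.16 and 11.26. Its 3 probes gave differences from -0.71 to -0.38. Beyond the low replicates 1 and 5, VP16 replicate 2 and VP16LXRa replicate 7 also lay below the other 4 tumors, so that Cyp3a13 varied within each group apart from those arrays.

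Cyp4 enzymes hydroxylate fatty acids and eicosanoids at their far end. Cyp4f14, which inactivates the neutrophil attractant leukotriene B4, had the most negative difference of all members, -1.65 (SE 1.46, limma's unadjusted p = 0.287). Its values were 8.18, 11.80, 12.17 and 12.05 in VP16 and 5.77, 11.85, 8.41 and 11.54 in VP16LXRa tumors. Low values thus occurred in 1 VP16 and in 2 VP16LXRa tumors, and without both arrays the difference was -1.40 (95% interval -3.43 to 0.62), which rested on VP16LXRa replicate 7. The related Cyp4f13 (9.78, 11.13, 10.96 and 10.46 against 9.44, 10.82, 10.14 and 10.49) and Cyp4f16 (8.37, 9.70, 9.31 and 9.66 against 8.28, 9.56, 9.50 and 9.67) varied less and did not share the low value of replicate 7 to that extent. Their differences were -0.36 (SE 0.38) and -0.01 (SE 0.40). Cyp4f18, a leukotriene B4 hydroxylase of mouse neutrophils, did not follow the pattern of the other Cyp4f genes. It stood at 6.11, 7.18, 5.50 and 6.35 in VP16 and at 7.18, 6.29, 7.60 and 5.12 in VP16LXRa tumors, and replicates 1 and 5 were not its lowest.

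Cyp2f2, known from lung for activating naphthalene, stood at 6.98, 8.87, 8.28 and 6.26 in VP16 and at 4.58, 8.84, 9.21 and 5.90 in VP16LXRa tumors. It was not detected in VP16LXRa replicate 5. VP16 replicate 4 and VP16LXRa replicate 8 lay more than 2 log2 units below the 4 tumors with high values, and its range over the 6 tumors without replicates 1 and 5 was 3.31, second to that of Cyp4f14 (3.76) and above the median range of the members (0.82). Cyp2b10, the classic target of CAR in mouse liver, was not tested, and its 2 probes disagreed. One was detected in VP16 replicate 1 and VP16LXRa replicate 5 alone, with log2 intensities of 8.32 and 7.54 there, and was not above background in the other 6 tumors, at 4.35 to 4.69. The other was detected in no tumor and read 4.61 and 4.49 in those same arrays, so that the level of the gene there is not settled.

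**Figure D4:**
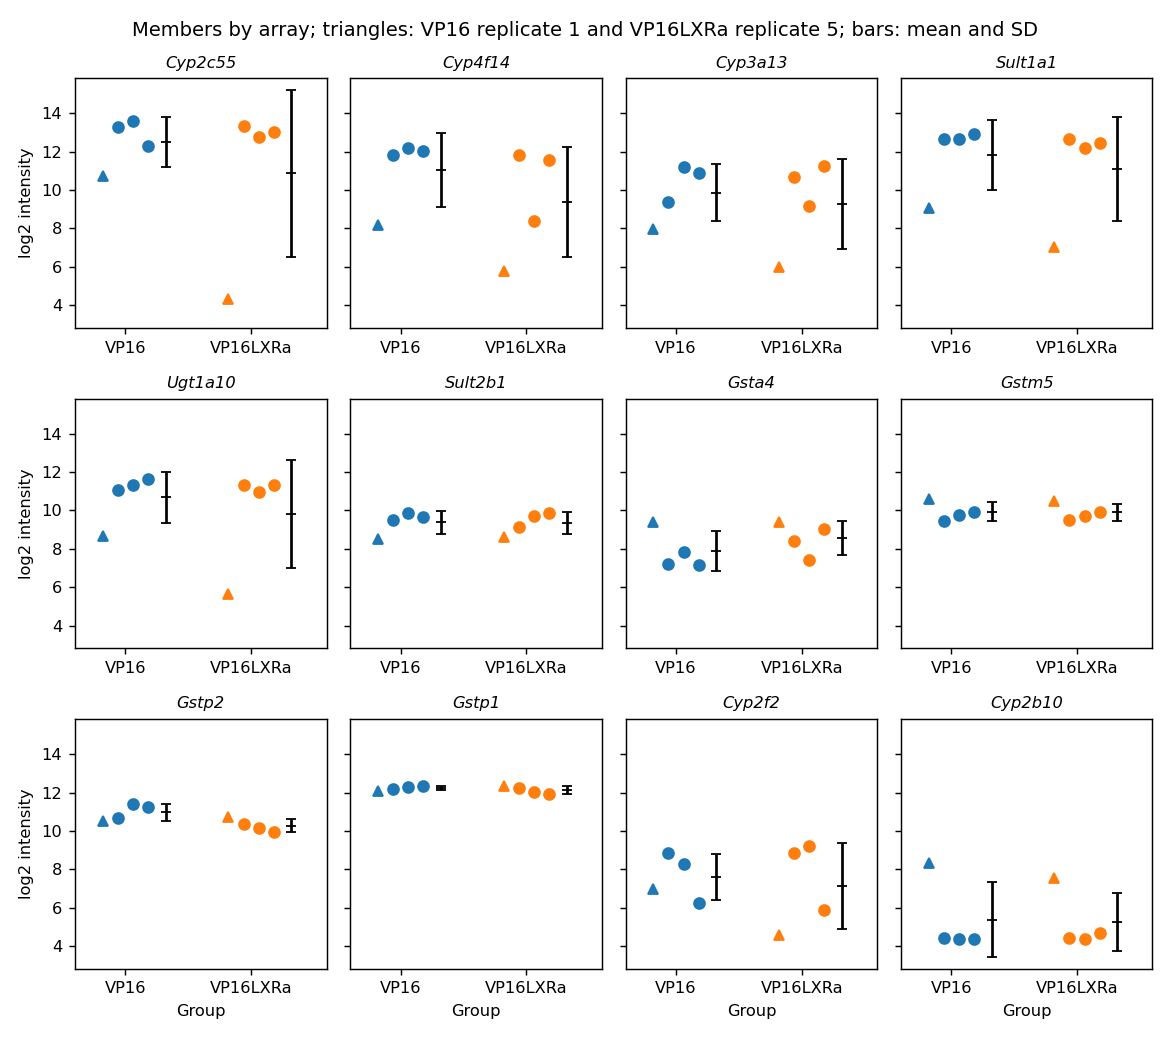
Log2 intensity of 12 members on each array. Points are arrays, triangles are VP16 replicate 1 and VP16LXRa replicate 5, and the bar beside each group is its mean and SD (n = 4). The triangles are lowest for Cyp2c55, Cyp4f14, Cyp3a13, Sult1a1, Ugt1a10 and Sult2b1 and highest for Gsta4, Gstm5 and the detected probe of Cyp2b10.

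Among the glutathione transferases 14 of 17 genes had lower and 3 higher means in VP16LXRa tumors (median -0.12). The 4 genes of the alpha class split in their pattern across tumors. Gsta1 and Gsta2, near-identical enzymes whose probes may not tell them apart, were low in replicates 1 and 5: Gsta1 stood at 7.93, 8.85, 8.83 and 8.73 in VP16 and at 5.65, 9.64, 8.61 and 9.17 in VP16LXRa tumors. Gsta4, which detoxifies the lipid peroxidation product 4-hydroxynonenal and lies beside them on chromosome 9, ran the other way, at 9.38, 7.19, 7.82 and 7.16 against 9.38, 8.40, 7.41 and 9.06. It had the most positive difference of the members, 0.68 (SE 0.58, 95% interval -0.65 to 2.01), and 0.90 (-0.10 to 1.90) without both arrays. Gsta3, which in mouse conjugates the activated form of aflatoxin and is encoded on chromosome 1, was likewise high in replicates 1 and 5 (9.04, 7.45, 8.41 and 8.23 against 10.00, 8.14, 7.32 and 7.81) and differed by 0.04 (SE 0.58).

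The mu class showed the same split within 1 gene cluster on chromosome 3. Gstm2 (11.43, 12.45, 12.42 and 12.63 in VP16, 10.53, 12.75, 12.37 and 11.96 in VP16LXRa) and Gstm1 (9.63, 10.90, 10.86 and 10.56 against 9.45, 11.13, 10.30 and 10.13) were lowest in replicates 1 and 5. Gstm5 was highest in these arrays, at 10.60, 9.43, 9.75 and 9.93 against 10.48, 9.48, 9.69 and 9.93. Among the mu genes on the array it is at 1 end in the RefSeq order, and Gstm6 is the nearest of them. The difference of Gstm5 between the groups was -0.03 (SE 0.30). The differences of Gstm1 and Gstm2 were -0.24 (SE 0.40) and -0.33 (SE 0.48), and that of Gstm6 was -0.35 (SE 0.26). The 3 Gstm2 probes lay within -0.38 to -0.33. The mu genes are close in sequence, and cross-hybridisation of their probes was not examined.

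The pi class was not part of the pattern of the 2 arrays, and it held the member with the smallest p. Gstp2 had log2 intensities of 10.51, 10.69, 11.42 and 11.27 in VP16 and 10.70, 10.34, 10.13 and 9.92 in VP16LXRa tumors. VP16LXRa replicates 6 to 8 were below every VP16 tumor, while replicate 5 lay among them. The groups differed by -0.70 (SE 0.26, 95% interval -1.30 to -0.10, limma's unadjusted p = 0.0269), a 1.63-fold lower level that did not pass over all probes. Without both arrays it was -1.0 (95% interval -1.55 to -0.45, limma's unadjusted p = 0.00378), which did not pass either. Gstp1, its neighbour on chromosome 19 and the main pi class enzyme, stood at 12.10, 12.19, 12.30 and 12.35 against 12.34, 12.23, 12.01 and 11.93, a difference of -0.11 (SE 0.15), and its 3 tested probes gave -0.21 to -0.11. Gstp1 and Gstp2 are close copies. Whether the Gstp2 probe also reads Gstp1 was not examined, and the difference between the 2 genes was not tested. Their promoters are shown so that these neighbouring copies can be compared. In a global alignment 243 of 282 aligned bases (86.2%) were identical, and of the 6 motifs only GCGTG, in Gstp1, was matched.
Gstp1, chr19:4037863-4038162, minus strand: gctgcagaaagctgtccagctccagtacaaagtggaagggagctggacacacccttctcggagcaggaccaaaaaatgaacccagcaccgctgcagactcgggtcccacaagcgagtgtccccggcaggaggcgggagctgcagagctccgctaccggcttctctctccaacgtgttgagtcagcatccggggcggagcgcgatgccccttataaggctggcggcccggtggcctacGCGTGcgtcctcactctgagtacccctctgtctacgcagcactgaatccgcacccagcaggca
Gstp2, chr19:4042172-4042471, minus strand: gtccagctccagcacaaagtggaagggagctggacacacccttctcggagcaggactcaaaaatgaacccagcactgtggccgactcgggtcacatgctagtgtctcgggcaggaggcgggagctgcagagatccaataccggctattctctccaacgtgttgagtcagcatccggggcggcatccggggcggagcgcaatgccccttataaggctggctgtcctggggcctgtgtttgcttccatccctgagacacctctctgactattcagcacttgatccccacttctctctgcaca

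The remaining classes had small differences with intervals that include 0. Gsto1, which reduces dehydroascorbate and some arsenic compounds, was at 12.40, 12.52, 12.34 and 12.98 in VP16 and 11.26, 12.64, 12.58 and 12.70 in VP16LXRa tumors, low in replicate 5 alone (difference -0.27, SE 0.34). Gstt1, of the theta class that acts on small halogenated compounds, was at 6.62, 8.35, 8.09 and 7.64 against 5.54, 8.18, 7.86 and 7.60 (difference -0.39, SE 0.61). Gstz1, which also serves tyrosine breakdown, had a difference of 0.05 (SE 0.16) and one of the narrowest spreads of the families. Gstk1, an enzyme of mitochondria and peroxisomes, Gstt2 and Gstt3 had differences of -0.12 (SE 0.58), -0.05 (SE 0.38) and -0.13 (SE 0.51).

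The UDP-glucuronosyltransferases and sulfotransferases held several of the members with the deepest lows in replicates 1 and 5. The Ugt1 transcripts share all exons but the first, so that their probes may read several of them. Ugt1a10, an isoform of the gut, was at 8.68, 11.07, 11.34 and 11.62 in VP16 and 5.63, 11.35, 10.97 and 11.31 in VP16LXRa tumors. Its difference was -0.86 (SE 1.31), and -0.13 (95% interval -0.61 to 0.34) without both arrays. Ugt1a6a, which glucuronidates small phenols, was at 5.69, 7.49, 7.44 and 7.61 against 4.86, 7.22, 7.47 and 7.60 (difference -0.27, SE 0.68), and its other tested probe gave -0.45. The first probe was not detected in VP16LXRa replicate 5, and the other in neither VP16 replicate 1 nor VP16LXRa replicate 5. Of the Ugt2 genes, which act on steroids and bile acids among others, Ugt2b34 had a difference of -0.30 (SE 0.55) and Ugt2b35 and Ugt2b36 of 0.13 each (SE 0.27 and 0.42). Ugt2b36 was detected in 2 tumors of each group, so that its values lie near background. Ugt2b35 was the one whose value in VP16 replicate 1, 6.60, lay within those of the other VP16 tumors (6.20 to 6.71).

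All 5 tested sulfotransferase genes were lower in replicates 1 and 5 than in every other tumor. Sult1a1, which sulfates phenols, was at 9.09, 12.68, 12.67 and 12.91 in VP16 and at 7.03, 12.68, 12.20 and 12.43 in VP16LXRa tumors. Outside those 2 arrays its 6 values lay within 0.71 log2 units, and the difference there was -0.32 (95% interval -0.74 to 0.11). Sult1d1, a sulfotransferase of catecholamines, was at 7.76, 9.86, 10.04 and 9.99 against 4.42, 10.24, 9.69 and 10.31, and was not detected in replicate 5. Sult1b1, which acts on thyroid hormones, was at 4.96, 6.47, 6.48 and 6.37 against 4.46, 5.85, 6.28 and 6.57, detected in 3 tumors of each group. Sult1c2 was at 7.67, 9.29, 9.67 and 8.60 against 4.65, 10.49, 10.19 and 9.50, and was not detected in VP16LXRa replicate 5. Its difference was -0.10 (SE 1.21) over all arrays but 0.87 without both arrays (95% interval 0.03 to 1.71, limma's unadjusted p = 0.0437) and 1.25 without VP16LXRa replicate 5 alone, and neither passed over all probes.

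Sult2b1, the cholesterol sulfotransferase, is the member closest to sterol metabolism, since sulfation inactivates oxysterols as LXR ligands. It stood at 8.53, 9.49, 9.85 and 9.68 in VP16 and at 8.63, 9.16, 9.69 and 9.89 in VP16LXRa tumors. The groups overlapped throughout, with a difference of -0.05 (95% interval -0.88 to 0.79), and of -0.09 (-0.63 to 0.44) without both arrays. Its 3 probes gave -0.13 to -0.05.

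Leaving out both arrays, a choice made with earlier results of these data known, narrowed most intervals but added no call. No member probe passed (0 of 61, smallest adjusted p = 0.9998), against 4 of all 11875 probes (0.0337%). The unadjusted p was under 0.05 for 3 member probes (4.92%), those of Gstp2 and Sult1c2 and the dimmer Ugt1a6a probe, against 3.24% of all tested probes. Groups of 3 did not overlap for 3 member probes (4.92%), 1 each of Gstp1, Gstp2 and Ugt1a6a, against 8.03% of all. Those of Gstp1 and Ugt1a6a were the dimmest tested probes of their genes, and at the brighter probes the groups overlapped.

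**Figure D5:**
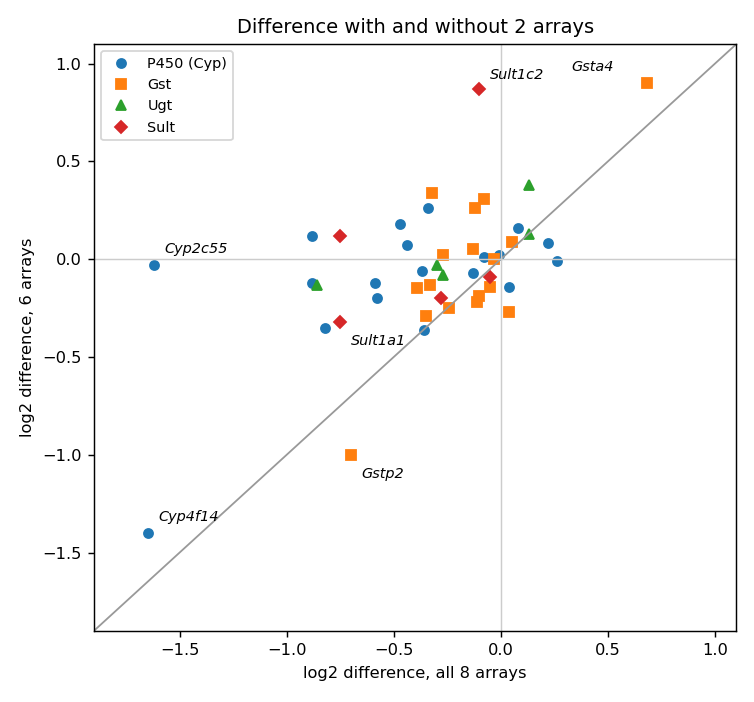
Log2 difference between VP16LXRa and VP16 tumors over all 8 arrays (horizontal) and over the 6 arrays without VP16 replicate 1 and VP16LXRa replicate 5 (vertical) for the 46 tested member genes. The line marks equal values. The difference is nearer to 0 without both arrays for 28 genes, such as Cyp2c55, from -1.62 to -0.03, while Gstp2, at -0.70 and -1.0, and Cyp4f14, at -1.65 and -1.40, keep theirs.

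Genes that work with the families were not called either, with 0 of the tested members past the adjusted threshold in each list, in either direction. Of 33 tested other oxidising, reducing and hydrolysing enzymes 12 had higher and 21 lower means in VP16LXRa tumors (median log2 difference -0.17). They were led by the carbonyl reductases Cbr3 at -0.94 (SE 0.52) and Cbr1 at -0.65 (SE 0.39) and the aldehyde reductase Akr1a4 at -0.21 (SE 0.16). Of 13 other conjugating enzymes and genes of their cofactors 4 were higher and 9 lower (median -0.12). Tpmt, which methylates thiopurine drugs, stood at 5.36, 5.22, 7.75 and 5.38 in VP16 and at 7.70, 7.78, 7.35 and 7.76 in VP16LXRa tumors. It was detected in all 4 VP16LXRa tumors but in VP16 replicate 3 alone of its group, so that it was tested only because of the group where it is high. The other 3 VP16 values are not above background, and no difference is given. Mgst1, a microsomal glutathione transferase, and Papss1, which makes the sulfate donor, were at -0.64 (SE 0.41) and -0.40 (SE 0.29).

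Of 9 tested receptors and partners 4 were higher and 5 lower (median -0.03). Nfe2l2, which encodes NRF2, was at 0.11 (SE 0.26). The AHR repressor Ahrr was detected in 3 VP16 and 1 VP16LXRa tumors and the AHR partner Arnt in 1 and 4, with all values of both genes between 4.99 and 6.04, so that most of the lower group was not above background and no difference is given. Of 13 NRF2 targets outside the families 4 were higher and 9 lower (median -0.13), among them Cbr3 as above, Srxn1 at -0.43 (SE 0.34) and Gclc at -0.15 (SE 0.20). The 3 tested AHR targets were Ahrr, Nqo1 at -0.28 (SE 0.45) and Nfe2l2. Of 11 drug transporters 5 were higher and 6 lower (median -0.09), with Slc22a18 at -0.48 (SE 0.39), Abcc3 at -0.47 (SE 0.39) and Slco4a1 at 0.30 (SE 0.28). The 4 tested P450 genes of other families, which serve sterol synthesis and breakdown for the most part, were split evenly. They included Cyp51 at -0.31 (SE 0.25), Cyp27a1 at 0.39 (SE 0.64) and Cyp7b1 at 0.17 (SE 0.37). None of the 4 was lower in both replicates 1 and 5 than in all other tumors. This held for 18 of the 33 other oxidising, reducing and hydrolysing enzymes (54.5%) and 6 of the 13 other conjugating genes (46.2%). It also held for 7 of the 11 transporters (63.6%), 3 of the 9 receptors and partners (33.3%), 3 of the 13 NRF2 targets (23.1%) and 1 of the 3 AHR targets. The share of all tested genes was 19.5%. Higher in both arrays than in all other tumors were 4 of the NRF2 targets (30.8%) and 3 of the transporters (27.3%). So were 2 of the other oxidising, reducing and hydrolysing enzymes (6.06%) and 1 of the P450 genes of other families, against 21.9% of all tested genes. None of the other conjugating genes, receptors and partners or AHR targets was.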

How the data were processed

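Per the file headers, each array has 1 column of bead signals, an intensity that was deposited unnormalized and linear, and 1 of detection p-values. The submitters' processing notes name GenomeStudio. The authors' processed intensities, also deposited, served as an alternative; they are linear, with array medians of 18.04 to 18.16, and how they were made is not stated. The labels' protocols name QIAzol for extraction and an Ambion kit for labelling with biotin. Slides and scans are not named, which leaves batches unexamined. No arrays were left out of the main comparison, and none were identical.

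Background was corrected by normexp on the basis of detection, followed by quantile normalization and log2 after adding 16, which shrinks folds of dim probes (neqc of limma 3.58.1 in R 4.3.3). VP16LXRa minus VP16 was fitted by lmFit and eBayes over 11875 probes, two-sided, with Benjamini-Hochberg adjustment and a threshold of 0.05. Having 4 arrays per group limits the precision. Levels of different probes were not set against each other. Only the limma fit was tested on simulated data.

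The members and lists were chosen with earlier results of these data known. Named were, per family, every tested gene where 4 or fewer were tested, otherwise the 2 brightest and the 2 with the largest absolute difference. To these came the 6 members with the smallest p, the 6 with the widest range, any whose groups did not overlap, any with more than 1 tested probe, and up to 3 genes of each other list by smallest p, leaving out clone and locus names. Cyp2c65, Cyp2c67, Cyp2f2, Cyp2b10, Cyp4f18, Gstm5, Gstz1, Gstk1, Gstt2, Gstt3, the untested genes, the printed promoters and the motifs were chosen after values were seen. Symbols were kept as on the array, and all 98 member symbols matched RefSeq (GRCm38.p6).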

Additional observations from a re-analysis of the deposited data

Results flagged for a closer look

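In groups of 4 tumors, an array was set aside for a closer look when its gap to the nearest other tumor passed Dixon's 95% critical value. Chance gives this for about 1 in 20 groups that were not picked by their values. That rate does not apply here, since some named members were chosen for a wide range or a large difference, and all groups share the same arrays. The share over all tested genes was not computed. An array passed in 16 of the 60 groups of the 30 members named by rule. The array was VP16LXRa replicate 5 in 10 of them and VP16 replicate 1 in the other 6, always as the low value. In VP16LXRa replicate 5 the log2 intensity was 4.33 for Cyp2c55, 5.87 for Cyp2s1, 8.28 for Cyp4f16, 11.26 for Gsto1, 7.03 for Sult1a1, 4.65 for Sult1c2, 4.42 for Sult1d1, 5.63 for Ugt1a10, 4.86 for Ugt1a6a and 6.68 for Ugt2b34. In VP16 replicate 1 it was 8.18 for Cyp4f14, 7.93 for Gsta1, 9.09 for Sult1a1, 4.96 for Sult1b1, 7.76 for Sult1d1 and 5.69 for Ugt1a6a. Not detected were Cyp2c55, Sult1c2, Sult1d1 and Ugt1a6a in VP16LXRa replicate 5 and Sult1b1 in VP16 replicate 1. All 16 values come from 2 arrays, in which colonocyte markers were also low, and the part of those cells in them was not tested.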

How the results depend on the processing

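No member probe passed under any alternative run. These were the authors' own processed values, cyclic loess or median scaling, no background correction, a larger offset (50), 4 filters, array weights, a trended and robust variance, an adjusted p under 0.10, and fits with arrays left out. The smallest adjusted p of a named member was 0.823, for Gstp2. The median member difference, -0.27, ran from -0.53 to 0.26 when 1 array was left out, positive only without VP16LXRa replicate 5, and from -0.30 to -0.05 otherwise. Of 593 values of named genes under alternatives, those of Sult1c2 ran from -0.70 to 1.25 when 1 array was left out, turning from -0.10 to 1.25 without VP16LXRa replicate 5, and to 0.87 without both arrays, with unadjusted p under 0.05, and 62 more changed sign without such a p. The counts of members lower, 36 to 39, and low in both arrays, 32 or 33, held under 5 other scalings or offsets. Over all probes the count past the threshold, 1, was 0 without background correction, with an offset of 50, with detection on all 8 arrays and with no filter, 4 without both arrays, and 0 to 2 when 1 array was left out. No paired analysis was possible because the titles' replicate numbers run on from 1 to 8 across the groups. Members near background, with log2 values under about 5, have no reliable fold.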
